A study of Drosophila melanogaster with 10 samples.

Results

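Lamina-associated domains (LADs) of late Drosophila melanogaster embryos were described along the chromosome arms of the dm3 genome. All domains of the deposited Lam list were taken, without selection by any value. The list held 15662 domains, of which 13797 lay on the 6 arms (X, 4, 2L, 2R, 3L and 3R) and entered every result below. The series holds 34934 Lam and Elys domains in all.

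The nuclear lamina is a meshwork of lamins under the inner nuclear membrane. Chromosome regions that touch it, the LADs, are known to hold mostly inactive chromatin with few expressed genes, while active regions between them tend to lie further inside the nucleus. Lamin Dm0, the B-type lamin of Drosophila, is made in nearly all cell types of the fly. Elys, used here only for values beside those of LADs, is a nucleoporin that links chromatin to nuclear pores.

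LADs were mapped by DamID, in which a protein fused to the bacterial methylase Dam marks the DNA that it meets. The samples were Dam-LaminDm0 embryos and, as the control for open or easily methylated chromatin, embryos with unfused Dam, in 2 replicates each. Both groups, and the Dam-Elys embryos, were collected from 16 to 18 h of development. All were offspring of mothers that supply Cre recombinase to oocyte and zygote and of fathers carrying a pUAST-attB-hsp70-loxP-stop-loxP construct for Dam-Lam, Dam or Dam-Elys at attP40 on chromosome 2. Cre removes the stop cassette, and the basal hsp70 promoter then drives the fusion at a low level in cells of any type. Each sample was DNA of many pooled whole embryos, so the LADs are an average over mixed cell types. PCR ran for 16 cycles on Dam-LaminDm0 DNA and for 18 on Dam DNA. The replicates were merged by the authors before domains were called. The deposited list gives only the start and end of each LAD in steps of 300 bp. The values below therefore carry no replicate error, the depth behind a LAD is unknown from the list, and no comparison was tested.

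LAD coverage is the share of base pairs inside LADs. By arm, it spanned a narrow range. LADs covered 46.1% of X, 46.5% of arm 4, 46.6% of 2L, 49.0% of 2R, 50.4% of 3L and 52.4% of 3R, each from the first to the last domain of the Lam or Elys list. Much larger differences lay within the arms.

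Each arm was cut into full windows of 500 kb from its first base, which gave 237 windows. Coverage of a window had a median of 51.5%, quartiles of 37.2 and 60.5% and an SD of 15.4 percentage points across windows. The lowest window was chrX:15500001-16000000, with 15 LADs that covered 9.68%. The highest was chr3R:3000001-3500000, where 79 LADs covered 84.8% and the longest piece free of LADs spanned 7.20 kb. Windows therefore ran from nearly empty to nearly full on arms of similar average coverage.

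Windows covered to at least 60% were taken as LAD-rich and those covered to at most 40% as LAD-poor. There were 62 LAD-rich, 103 intermediate and 72 LAD-poor windows. Coverage was graded, with no break at either limit. The windows next to the upper limit had 60.1 and 59.8%, and those next to the lower limit 39.7 and 40.2%. LAD-rich windows made up 8 of 44 on X, 11 of 45 on 2L, 8 of 42 on 2R, 15 of 49 on 3L and 20 of 55 on 3R. LAD-poor windows made up 18 of 44 on X, 15 on 2L, 14 on 2R, 12 on 3L and 13 on 3R. X had the highest share of LAD-poor windows (40.9%) and 3R the highest share of LAD-rich ones (36.4%). Both full windows of arm 4 were intermediate, with 56.2 and 42.3%.

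**Figure D1:**
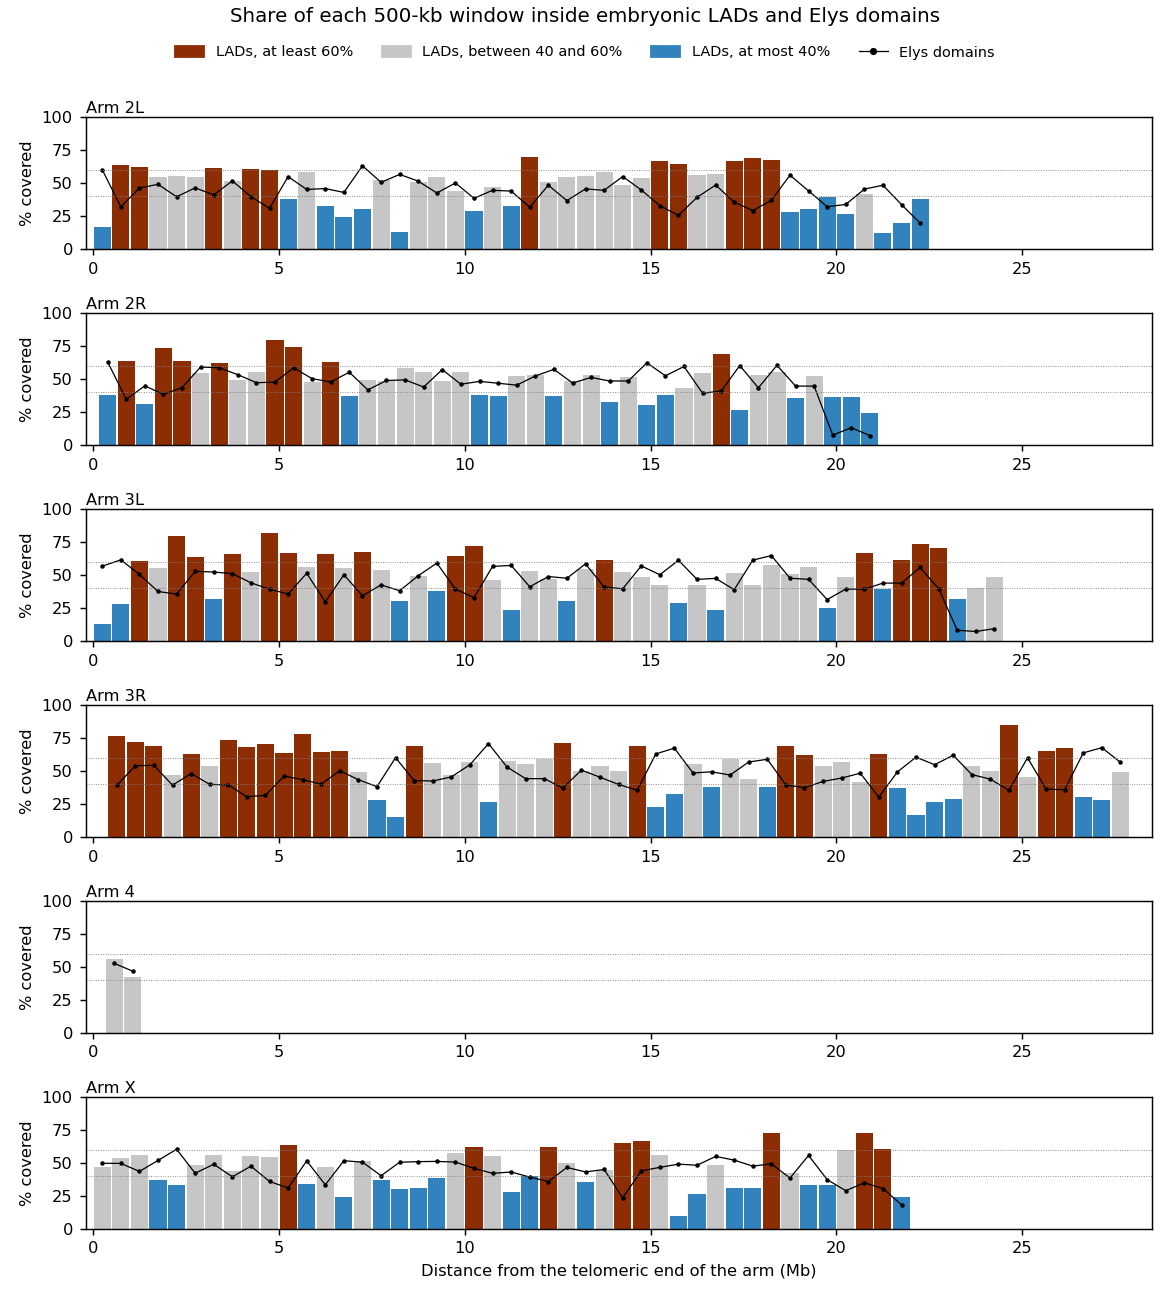
LAD coverage of full 500-kb windows (bars, % of base pairs) against the distance of the window from the telomeric end of its arm (Mb), with coverage by Elys domains as points joined by a line. Bars are coloured by class, at least 60%, between 40 and 60% and at most 40% (dotted lines). LAD-rich and LAD-poor windows both occur on all 5 large arms, with the longest LAD-rich run of 7 windows on 3R.

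The highest and lowest windows lay at different places on different arms. On 2L the highest window was chr2L:11500001-12000000 (69.5%, 94 LADs) and the lowest chr2L:21000001-21500000 (12.1%, 8 LADs). On 2R they were chr2R:16000001-16500000 (79.7%) and the first window of the arm, chr2R:1-500000 (24.3%), of which 240 kb held neither a Lam nor an Elys domain in pieces of over 10 kb. The lowest window of 3L was also the first of its arm, chr3L:1-500000 (12.6%), but this one is the telomeric end and the one on 2R the centromeric end. The highest window of 3L was chr3L:4500001-5000000 (81.5%, 81 LADs). On X the highest window, chrX:18000001-18500000 (72.5%, 105 LADs), lay directly beside a LAD-poor stretch. The lowest on 3R was chr3R:19500001-20000000 (14.9%, 18 LADs).

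LAD-rich windows held more LADs and, after the gaps between LADs had been filled, also longer ones. Coverage is number times mean length, so a difference in number, length or both is built into the classes. Only its division between number and length is described here. As deposited, LADs numbered 145 per Mb in LAD-rich windows, 121 in intermediate and 80.4 in LAD-poor windows. Their median length was nearly the same, at 2.10 kb in LAD-rich and 1.80 kb in LAD-poor windows. Long LADs were more frequent among those in LAD-rich windows, where 7.08% reached 15 kb, against 4.15% in LAD-poor windows. LADs in the list are often parted by gaps of 1 to 3 bins. The methods of the study state that short gaps were filled in domain sets taken from other work, and do not state it for this list. However, in the part of its own LAD list that was held here, every LAD had the start and end of a LAD of the deposited list after such filling. Numbers and lengths by class and by arm are therefore given in both versions, of which the filled one corresponds to the LADs of the study in that part. Those of single windows, stretches, parts of arms and arm ends are given as deposited only. Classes were set by coverage as deposited throughout. By coverage after filling of gaps of up to 900 bp, 79 windows would be LAD-rich and 61 LAD-poor, in place of 62 and 72. After gaps of up to 900 bp had been filled, LAD-rich windows held 42.9 LADs per Mb, whose median length was 10.5 kb. LAD-poor windows then held 33.2 per Mb with a median of 5.70 kb. So the difference in length between classes was small as deposited and larger after filling, while the difference in number was larger as deposited.

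Across the 237 windows, coverage went with the number of LADs (Pearson r = 0.58) and with the number of LADs of at least 15 kb (r = 0.65), and hardly with their mean length (r = 0.18). After filling, r was 0.34 with number and 0.66 with mean length. The longest LAD-free piece of a window had r = -0.73 with coverage. These are descriptions, since windows share the same merged libraries, neighbours are not independent, and coverage is itself number times mean length. LAD-rich windows took up 26.2% of windows and 36.0% of the covered length. LAD-poor windows took up 30.4% of windows and 18.5% of that length, so LADs were far from absent there.

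Equal coverage could be reached in very different ways. Of the 60 windows with 45 to 55% coverage, the most finely divided was chr3L:24000001-24500000, at the centromeric end of 3L, with 113 LADs of 2.16 kb on average covering 48.6%. The least divided was chr2R:3000001-3500000, where 20 LADs of 13.5 kb on average covered 52.8%. This pair was picked from the ends of the range and shows its width. The highest numbers of LADs in a window were on X, at 137 in chrX:5000001-5500000 (63.4%) and 134 in chrX:12000001-12500000 (61.6%). Few of these reached 15 kb (2 and 1).

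**Figure D2:**
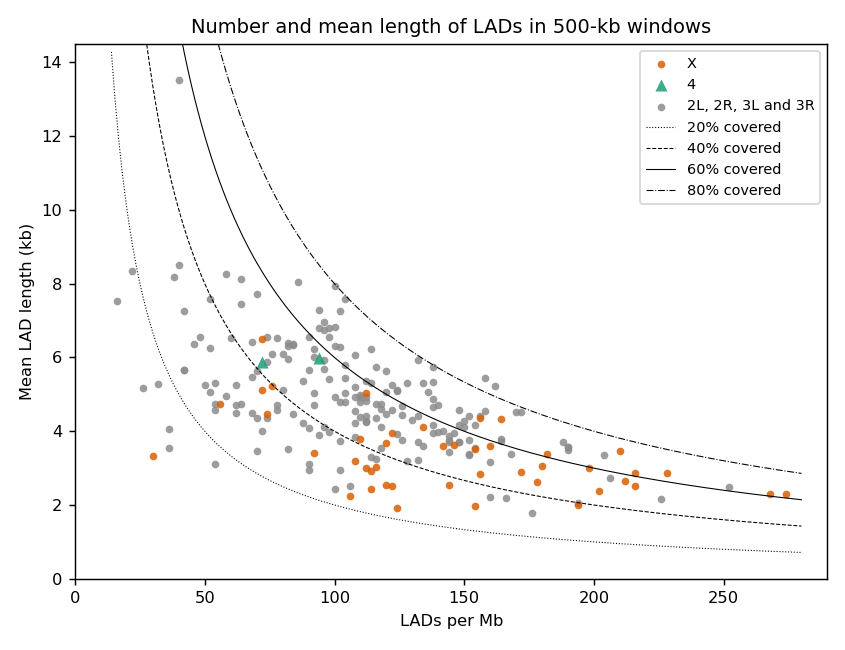
Mean LAD length (kb) against LADs per Mb for the 237 windows of 500 kb, by chromosome, with curves on which coverage would be 20, 40, 60 and 80%. Windows of X lean to the lower right, with a median of 143 LADs per Mb against 108 on the 4 large autosomal arms. They overlap the others widely, with 30 to 274 per Mb on X and 16 to 252 on those arms. The window with the longest mean length (13.5 kb) is on 2R.

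X differed from the autosomal arms in how its LADs were divided, more than in how much they covered. LADs numbered 146 per Mb on X and 108 per Mb on the 4 large autosomal arms, where the single arms ranged from 101 on 2R to 114 on 3L. The mean LAD was 3.15 kb on X and 4.61 kb on the autosomal arms. LADs of at least 15 kb numbered 3.88 per Mb on X and 7.36 on the autosomal arms, and held 16.95% of the covered length on X and 33.4% on the autosomal arms. Hence X was covered nearly as much by more and shorter LADs.

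These differences were mostly a matter of the shortest gaps. Gaps of a single 300-bp bin between neighbouring LADs numbered 63.9 per Mb on X and 45.6 on the autosomal arms. After gaps of up to 900 bp had been filled, LADs numbered 44.7 per Mb on X and 38.1 on the autosomal arms. Filled LADs of at least 15 kb then numbered 11.7 per Mb on X and 11.99 on the autosomal arms, so the deficit of long LADs on X nearly closed (X minus autosomal arms, -0.302 per Mb, against -3.48 as deposited). Arm 4 stood at the other end as deposited, with 80.5 LADs per Mb, 20.5 single-bin gaps per Mb and 51.8% of its covered length in LADs of at least 15 kb. Filled, arm 4 had 41.8 LADs per Mb, within the range of the other arms, but the lowest median length (4.80 kb, against 6.60 to 9.30 kb on the other arms). LADs of at least 15 kb were then the fewest per Mb (11.05), though near those of 2L (11.14). They held 72.4% of its covered length, against 66.5 to 73.95% on the other arms. With 102 LADs in all, arm 4 rests on the fewest of them.

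**Figure D3:**
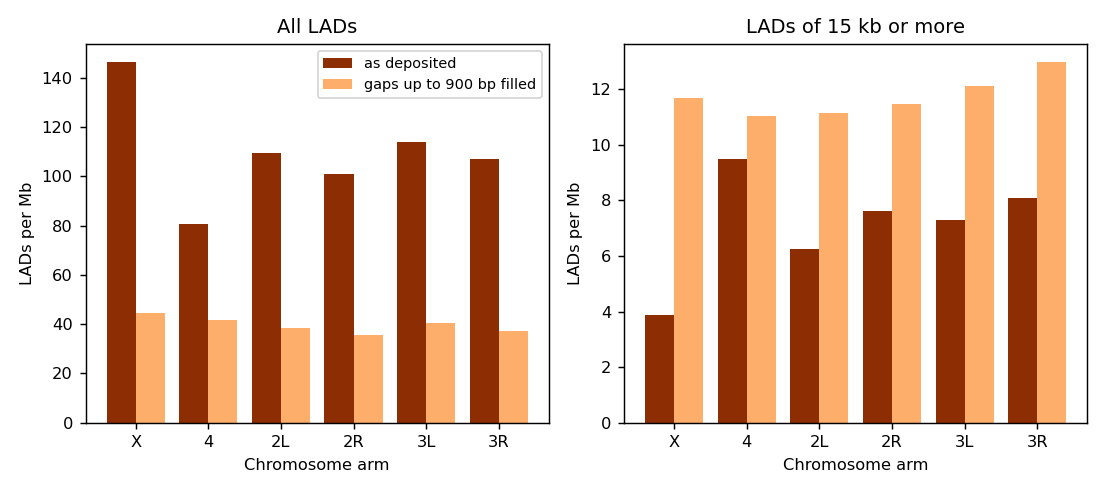
LADs per Mb (left) and LADs of at least 15 kb per Mb (right) on each chromosome arm, as deposited (dark bars) and after filling of gaps of up to 900 bp (light bars). As deposited, X has the most LADs (146 per Mb) and the fewest long ones (3.88 per Mb), and after filling all arms hold between 11.05 and 12.98 long LADs per Mb.

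As deposited, the longest single LADs were unevenly placed. Of the 100 longest, all of at least 30.3 kb, 33 lay on 3R, 24 on 3L, 22 on 2R, 13 on 2L, 4 on arm 4 and 4 on X. Per Mb this was 0.179 on X, 3.16 on arm 4 and between 0.566 and 1.18 on the other arms. These counts depend on short gaps and were not repeated after filling. The longest filled LAD spanned 107.4 kb on X, 79.2 kb on arm 4 and 87.6 kb on 2L. It spanned 107.7 kb on 2R, 116.4 kb on 3L and 153.3 kb on 3R, so X was then within the range of the large autosomal arms. The longest LAD of all in the deposited list was chr3R:11325001-11403600 (78.6 kb). It lay in a LAD-poor window, chr3R:11000001-11500000, which was covered to 38.1%. With 50 kb on each side, the LAD itself included, coverage there was 63.1%. Measured in the same way around the longest LAD of the other arms, it was 69.5% on X, 42.9% on arm 4, 90.03% on 2L, 84.96% on 2R and 75.3% on 3L. The LAD itself is covered in full, so these values lie above the coverage of its flanks alone, which was not computed.

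The longest LADs of the other arms differed in how much of them was shared with Elys domains. The longest on 2R, chr2R:15889501-15957000 (67.5 kb), was inside Elys domains for 80% of its length, and the longest on arm 4, chr4:1088701-1131300 (42.6 kb), for 97.9%. On X it was chrX:11841601-11883600 (42 kb, 15% in Elys domains). On 2L it was chr2L:633601-687000 (53.4 kb, 6.18%), and on 3L chr3L:16275001-16327500 (52.5 kb, 2.86%). For the LAD on 3R the share was 28.2%. Both domain lists were made against the same Dam libraries, so the shares are given side by side only.

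LAD-rich stretches of at least 1 Mb, made of at least 2 adjacent LAD-rich windows, numbered 16 and spanned 20 Mb. They lay on all large arms, with 7 Mb on 3R, 4.50 Mb on 2L, 4.50 Mb on 3L, 2 Mb on 2R and 2 Mb on X. The longest by far was chr3R:21000001-24500000, where 489 LADs covered 68.9% of 3.50 Mb and each of the 7 windows had between 63.5 and 77.8%. A further stretch near the telomeric end of 3R, chr3R:26000001-27500000, was covered to 72.5% by 187 LADs, 23 of them of at least 15 kb. Most of 3R beyond 21 Mb thus consisted of LAD-rich stretches. The others on that arm were chr3R:1500001-2500000 (65.9%) and chr3R:8500001-9500000 (65.2%).

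The most densely covered stretch was chr2R:15500001-16500000, where 120 LADs covered 76.8%, 15 of them of at least 15 kb. It holds the longest LAD of 2R and a second of 60 kb, and Elys domains covered 53.0% of it. The other one on 2R was chr2R:18500001-19500000 (68.6%). On 3L they were chr3L:2000001-3000000 (71.4%), chr3L:4500001-5500000 (74.2%), chr3L:9500001-10500000 (68.1%) and chr3L:21500001-23000000 (68.2%). The 3L stretches were built differently. That at 4.5 Mb had 207 LADs per Mb with a median of 1.20 kb, and that at 21.5 Mb had 98.7 per Mb with a median of 3.30 kb and 22 LADs of at least 15 kb.

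On 2L LAD-rich stretches were chr2L:500001-1500000 (63.2%), chr2L:4000001-5000000 (60.3%), chr2L:15000001-16000000 (65.6%) and chr2L:17000001-18500000 (67.6%, 292 LADs). The first of them begins right after the LAD-poor telomeric window and holds the longest LAD of the arm. On X they were chrX:14000001-15000000 (65.97%, 192 LADs) and chrX:20500001-21500000 (66.3%, 173 LADs). Both X stretches had more than 170 LADs per Mb and at most 21.1% of their covered length in LADs of at least 15 kb.

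LAD-poor stretches numbered 17 and spanned 21.5 Mb, of which 7 Mb lay on X, 5 Mb on 2L, 5 Mb on 3R, 3.50 Mb on 2R and 1 Mb on 3L. X had 6 of them and 3L only 1. The lowest was chrX:15500001-16500000, where 43 LADs covered 18.1%. It follows 2 LAD-rich windows and 1 intermediate window, so the highest and the lowest 1-Mb stretch of X, found in steps of 100 kb, lay only 100 kb apart. These were chrX:14200001-15200000 (70.8%) and chrX:15300001-16300000 (17.7%).

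The longest LAD-poor stretches were 2 Mb each, on X, 2L and 3R. In chrX:7500001-9500000, 306 LADs covered 34.1%, with a median length of 1.20 kb and 2 LADs of at least 15 kb. LADs were thus more numerous there (153 per Mb) than in LAD-rich windows as a class (145 per Mb), and short. This number was near that of X as a whole (146 per Mb as deposited). Every LAD-rich window of X held more, at 156 per Mb or above. In chr3R:4500001-6500000, 148 LADs covered 27.2%, and Elys domains covered 56.5%. In chr2L:18500001-20500000, 173 LADs covered 31.1%. It begins where the LAD-rich stretch of 2L at 17 Mb ends.

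The other LAD-poor stretches of X were chrX:1500001-2500000 (35.01%), chrX:11000001-12000000 (33.8%), chrX:17000001-18000000 (31.1%) and chrX:19000001-20000000 (33.2%). On 3R they were chr3R:500001-1500000 (29.3%), chr3R:12000001-13000000 (27.6%) and chr3R:19500001-20500000 (21.6%). The first of these 3R stretches had only 44 LADs per Mb, with a median length of 5.85 kb. On 2R they were chr2R:1-1500000 (32.1%), chr2R:5500001-6500000 (34.4%) and chr2R:10000001-11000000 (37.4%). On 2L chr2L:6000001-7500000 had 29.0% and chr2L:21000001-22500000 had 23.2%, and on 3L chr3L:1-1000000 had 20.4%.

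LAD-poor stretches differed in how much of them lay in neither list. Pieces of over 10 kb with neither a Lam nor an Elys domain, called blank here, took 625 kb of chr2R:1-1500000, where Elys domains covered only 9.20%. With these pieces left out of the length, LADs covered 54.97% of that stretch, so it was then no longer LAD-poor. Blank pieces took 426 kb of chr2L:21000001-22500000, where Elys domains covered 33.8%, and 351 kb of chr2L:18500001-20500000, where they covered 41.4%. By contrast, they took 37.2 kb of chr3R:12000001-13000000, where Elys domains covered 65.0%, and 62.4 kb of chr3R:500001-1500000, where Elys domains covered 65.6%. Over all windows, blank pieces had a median of 28.8 kb in LAD-rich and 49.1 kb in LAD-poor windows. With blank pieces left out of the length, LAD-rich windows numbered 82 in place of 62 and LAD-poor windows 49 in place of 72. Blank pieces hold no LAD, so leaving them out can only raise the coverage of windows and stretches. All 16 LAD-rich stretches above therefore stayed at or above 60% by construction. Of the 17 LAD-poor ones, 15 stayed at or below 40%, the exceptions being chr2R:1-1500000 and chr2R:10000001-11000000 (42.9%). Whether reads could be placed in blank pieces was not tested. Elys domains covered a median of 39.2% of LAD-rich windows, 46.7% of intermediate and 49.9% of LAD-poor windows, against the same Dam libraries.

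Freed from the window grid, the highest and lowest 1 Mb of each arm were sought in steps of 100 kb. The highest were chr2R:15700001-16700000 (78.1%), chr3R:26400001-27400000 (77.9%), chr3L:21700001-22700000 (75.8%), the X stretch above and chr2L:17300001-18300000 (70.4%). The lowest of all was chr2L:20900001-21900000, where 18 LADs covered 8.82%. It includes a piece of 329 kb with no LAD, and 268 kb of blank pieces, while Elys domains covered 46.7%. The lowest of 2R was chr2R:300001-1300000 (29.0%, and 49.0% without its 407.5 kb of blank pieces), that of 3L its first 1 Mb at the telomere (20.4%), and that of 3R chr3R:5000001-6000000 (21.4%). All large arms thus had 1 Mb above 70% and 1 Mb below 30%, and without blank pieces the lowest 1 Mb stayed below 30% on X, 2L, 3L and 3R but not on 2R.

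Most runs of a class were short. LAD-rich windows formed 38 runs, of which 22 were a single window, 12 were pairs and 4 were longer. LAD-poor windows formed 46 runs, of which 29 were single, 11 were pairs and 6 were longer. Adjacent windows differed in coverage by a median of 13.0 percentage points, and 67 of 231 adjacent pairs differed by more than 20. In 25 pairs a LAD-rich window lay directly beside a LAD-poor one.

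The sharpest step was on 3R at 19.5 Mb, where chr3R:19000001-19500000 had 68.8% and the next window 14.9%, a difference of 53.9 points. At the telomeric end of 2L the first window had 16.9% and the second 64.0%. On 3R at 13 Mb the windows before and after had 22.6 and 68.8%, and on X at 15.5 Mb 55.5 and 9.68%. Steep steps of this kind occurred in both directions along the arm and on 4 of the 5 large arms among the 8 largest.

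Across the arms together, windows were alike only at short distance, while single arms differed. Across pairs of windows on the 5 large arms, the Pearson r of coverage was 0.23 at a distance of 0.5 Mb (230 pairs), 0.071 at 1 Mb and 0.036 at 1.5 Mb, and between -0.067 and 0.045 from 2 to 5 Mb. On 2L r was 0.35 at 0.5 Mb, 0.32 at 1 Mb and 0.23 at 2 Mb, and on X it was 0.17 at 0.5 Mb and -0.33 at 1 Mb. On 2R it was lower at 0.5 Mb (0.066) than at 1 Mb (0.22) and at 3.5 Mb (0.28). These are descriptions across windows of the same libraries, without a test.

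Finer windows were more often empty or full. In windows of 50 kb, 217 of 2376 held no LAD base pair and 18.0% were covered to at least 80%. The SD of coverage was 30.1 percentage points at 50 kb, 25.7 at 100 kb, 19.9 at 250 kb, 15.5 at 500 kb and 11.9 at 1000 kb. Only 2 windows of 500 kb and none of 1000 kb reached 80%. The window size therefore sets how extreme LAD-rich and LAD-poor regions appear.

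**Figure D4:**
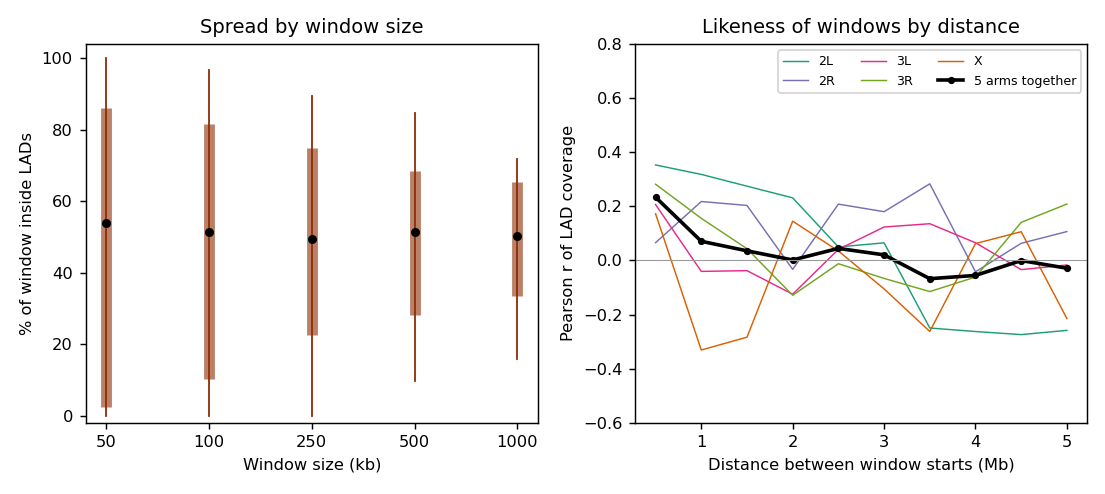
Left, LAD coverage (% of the window) of full windows of 50 to 1000 kb on the 5 large arms, with the median (point), the 10th to 90th percentile (thick bar) and the full range (thin line). Right, Pearson r of coverage between pairs of 500-kb windows against their distance (Mb), for each arm and for the 5 arms together, which drops to 0.071 at 1 Mb.

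The ends of the arms were examined over the outermost 500 kb and in steps of 100 kb, counted from the first base of the arm or from the last domain of either list. Telomeric ends were poor in LADs on 3 of the 5 large arms. LADs covered 12.6% of the outer 500 kb of 3L, 16.9% of 2L and 23.8% of 2R, but 45.5% of 3R, 46.9% of X and 39.9% of arm 4. Over the 5 large arms it was 29.1%, while Elys domains covered 56.9%.

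On 2L the first LAD lay 224 kb from the telomeric end, whereas the first Elys domain lay at 5.10 kb. The first LAD lay at 61.5 kb on 3L, 38.1 kb on X, 22.5 kb on 3R and 10.8 kb on 2R. Averaged over the 5 large arms, LADs covered 20.6% of the first and 18.1% of the second 100 kb. From 500 to 600 kb they covered 44.7%, and from 900 to 1000 kb 70.3%. Elys domains covered 61.4% of the first and 39.3% of the tenth step. Of the arms with LAD-poor ends, 2L and 2R had a LAD-rich window directly inside the first 500-kb window. On 3L low coverage reached further, with at most 34.5% in every step up to 900 kb. 3R and X had no such zone, since LADs covered 61.3% of the second and 68.2% of the third step on 3R, and 86.8% of the third on X.

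Centromeric ends varied more between arms. LADs covered 73.7% of the inner 500 kb of X, 51.7% of 3L, 49.0% of 3R, 42.3% of arm 4, 24.3% of 2R and 20.4% of 2L. Over the 5 large arms it was 43.8%, while Elys domains covered 22.5%. Telomeric and centromeric ends of these arms thus differed by -14.7 percentage points (telomeric minus centromeric). With ends of 1 Mb the difference had the other sign (44.6% telomeric and 38.2% centromeric, 6.36 points). With blank pieces kept in the length, the order of both kinds of end thus depends on the size taken. In the ends of 1 Mb, blank pieces took 475 kb in total at telomeric and 1292 kb at centromeric ends. The order at 1 Mb without blank pieces was not computed.

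Blank pieces were more extensive at centromeric ends. In the outer 500 kb of the 5 large arms they took 245 kb in total at telomeric and 614 kb at centromeric ends. They took 259 kb of the inner 500 kb of 2L and 240 kb of that of 2R, but 16.2 kb of that of X. Left out of the length as before, they gave a coverage of 32.3% at telomeric and 58.1% at centromeric ends. The part of blank pieces in the difference between ends was not tested otherwise.

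The LADs at centromeric ends were also cut more finely on some arms. The inner 500 kb of 3L held 122 LADs (244 per Mb) of 0.900 kb in the median, and Elys domains covered 10.6% of it. That of X held 87 LADs of 2.70 kb and that of 3R 32 LADs of 4.35 kb in the median. On 3R the LADs were thus few and long, and Elys domains covered 56.4% of its inner 500 kb. Hence 3R was the only large arm whose centromeric end was covered by Elys domains to more than 30%.

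**Figure D5:**
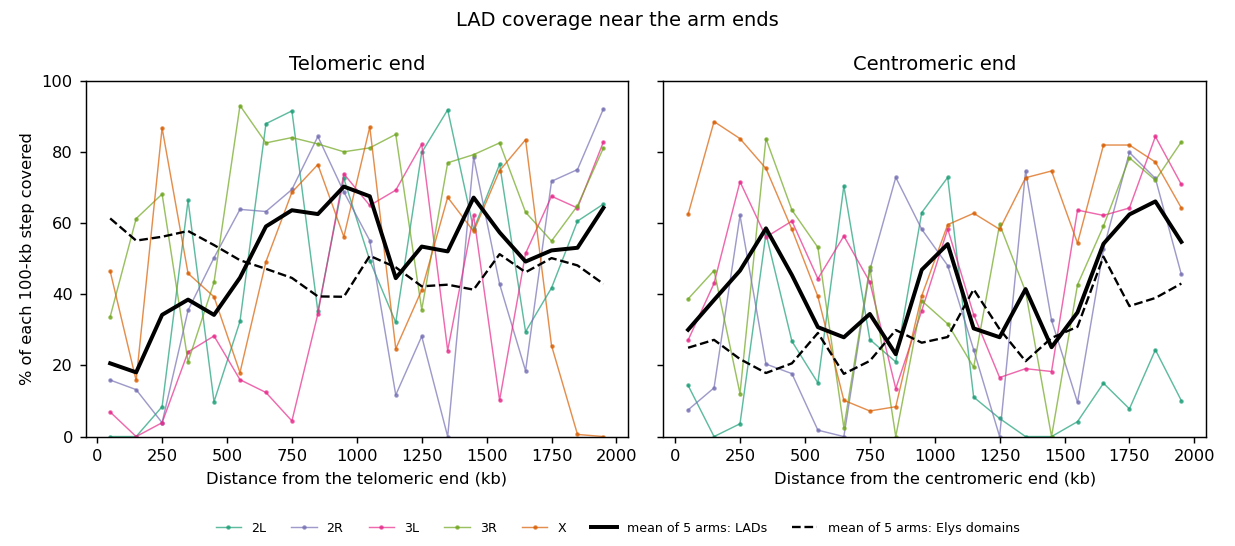
LAD coverage (% of each 100-kb step) against the distance from the telomeric end (left) and from the centromeric end (right) in kb, for each of the 5 large arms (thin lines), with the mean of the arms for LADs (thick line) and for Elys domains (dashed line). Near telomeres the mean for LADs starts at 20.6% and reaches 70.3% at 900 to 1000 kb, while single arms spread widely at both ends.

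On a larger scale, each arm was divided into 3 equal parts. Over the 5 large arms, LADs covered 53.5% of the telomeric, 47.7% of the middle and 46.0% of the centromeric part. Of the windows centred in these parts, LAD-rich ones made up 33 of 78, 11 of 80 and 18 of 77, and LAD-poor ones 17, 24 and 31. LADs of at least 15 kb numbered 8.18 per Mb in the telomeric, 6.08 in the middle and 5.85 in the centromeric part.

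The telomeric part was the most covered on 3R (59.8%), 2R (56.2%) and 3L (55.2%). On 2L the telomeric part had 48.3% and the middle part 48.6%, and on X both had 46.9%. So the lean towards the telomeric side, found despite the depleted outermost 500 kb, held on 3 of the 5 large arms. Blank pieces took 7.44% of the telomeric, 6.99% of the middle and 12.7% of the centromeric part. With blank pieces left out of the length, coverage was 57.8, 51.3 and 52.6% in the same order, so the centromeric part was then no longer the lowest.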

How the data were processed

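DamID-seq libraries of Dam-LaminDm0, Dam-Elys and Dam embryos, 2 replicates each, were processed by the authors. Reads were adapter clipped, mapped uniquely to dm3/R5 with Bowtie2, counted in bins of 300 bp with HTSeq-count, merged between replicates, scaled to library size (RPM), divided by Dam and log2 transformed. The authors called Lam domains with a hidden Markov model of 2 states. Versions are not given in the sources used here. The deposited values are start and end positions in bp, with no score, count or signal, so depth per domain is unknown. The RNA-seq libraries of the series were not used here. Columns of other series numbered 0.

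Coverage, LAD number (by midpoint) and length were computed with Python 3.11.15 and NumPy 2.4.6, and plotted with Matplotlib 3.10.9. Arms ended at the last domain of either list. Telomeric ends are the start of 2L, 3L and X and the end of 2R, 3R and 4. Regions named are all LAD-rich and LAD-poor stretches, the highest and lowest window of each arm and 1-Mb stretch of each large arm, the 12 arm ends and the longest LAD of each arm. The first and second windows by LAD number, the pair of equal coverage, and the sharpest steps were named after their values were seen. Members and rules were chosen with earlier results of these data known. Window coverage and the number of LAD-rich runs were checked on simulated domains, and gap filling on a small example. No gene was named and no sequence printed, since no annotation or genome of dm3 was used here. No test was run. Alternatives covered gap filling, the smallest domain, blank pieces, window size and start, limits of the classes and size of the ends.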

Additional observations from a re-analysis of the deposited data

Results flagged for a closer look

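Outside the chromosome arms, 1865 Lam domains lay on heterochromatin scaffolds, which the results above do not use. 3RHet held 627 Lam and 358 Elys domains, 3LHet 581 Lam and 332 Elys, 2RHet 501 Lam and 346 Elys, and XHet 24 Lam and 10 Elys. 2LHet held 73 and YHet 59 Lam domains, and both are without an Elys domain in the list. They are given as values, since the scaffolds cannot be placed along an arm.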

How the results depend on the processing

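No paired analysis was possible because the replicates had been merged before the domains were called. For the same reason no replicate could be left out. Filling of gaps up to 900 bp moved the median coverage of windows to 55.5%, that of 2L, 2R, 3L, 3R, 4 and X to 49.7, 51.8, 53.6, 55.5, 48.5 and 50.7%, and that of telomeric and centromeric ends to 30.4 and 47.5%. With domains of at least 600 bp only, 2L, 2R, 3L, 3R and X had 45.9, 48.4, 49.6, 51.7 and 44.97%. With blank pieces left out of the length, the median of windows was 55.4%, that of 2L, 2R, 3L, 3R, 4 and X 51.7, 55.1, 55.6, 56.2, 52.8 and 50.5%, and that of telomeric and centromeric ends 32.3 and 58.1%. Windows of 250 kb gave 176 LAD-rich and 162 LAD-poor windows with 10 stretches of each class, and windows of 1 Mb gave 21 LAD-rich and 28 LAD-poor windows. A stretch had to span at least 1 Mb at every window size, so a single window of 1 Mb was enough. Counts of stretches from different window sizes are therefore not like for like. Limits of 65 and 35% left 37 LAD-rich windows and 7 LAD-rich stretches. Ends of 250 kb had 22.8% (telomeric) and 36.0% (centromeric), and ends of 1 Mb 44.6 and 38.2%. The difference between both kinds of end, recomputed under each of these alternatives after seeing the data, changed sign only with ends of 1 Mb, blank pieces kept (6.36 points). It was -25.8 points for ends of 500 kb without blank pieces. The counts of LADs per Mb by arm and class under filling and the coverage of stretches without blank pieces were likewise added after seeing the data. X had the lowest coverage of the arms with the list as deposited, with domains of at least 600 bp and without blank pieces, but after filling arms 4 and 2L were lower. Another 27 recomputed values of windows, stretches, arms and ends moved by less than the limits set for them, and 35, all given above, by more. The limit was 1.5 times for counts. For coverage it was a binomial interval that counted every 300-bp bin as independent. Neighbouring bins are not independent, so that limit is narrow and is not a test. Within these limits, LAD-rich windows went up to 82 and LAD-poor windows down to 49 without blank pieces. After filling of gaps they numbered 79 and 61, with 19 LAD-rich and 13 LAD-poor stretches. In both alternatives LAD-rich windows outnumbered LAD-poor ones, the reverse of the list as deposited. LAD-poor stretches ranged from 12 (without blank pieces, or with limits of 65 and 35%) to 22 (windows of 1 Mb). Since the lists hold no signal or reads, the depth that limits a single LAD is unknown.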
